A study of Mus musculus with 38 samples.

Results

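Of 169323 regions of open chromatin measured in mouse CD8+ T cells, 262 were open in naive cells, about as open in the progenitor-like cells of a tumour (Tprog), and largely closed in the terminally exhausted cells (Tterm) of the same tumour model. Accessibility was measured by ATAC-seq, where a transposase cuts and tags DNA that is not packed away by nucleosomes, and each value is the number of reads in a peak divided by a library size factor (normalized reads). The 262 members were chosen by values of young OT-1 and young naive libraries alone. The mean of the young naive libraries and the mean of the young OT-1 Tprog libraries each had to reach 50 normalized reads, each had to be at least 3 times the mean of the young OT-1 Tterm libraries, and the ratio of naive to Tprog had to lie between 0.5 and 2. The levels in those 3 groups are therefore a description, and the tests compare aged OT-1, aged naive and endogenous groups, which the choice did not use. The young libraries that chose the members still enter the fit of the OT-1 and naive table. They share its estimate of the spread, and young Tterm libraries share that of its batch term. The p-values from that table are therefore not fully independent of the choice.

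All cells came from C57BL/6J mice, aged 64-68 weeks or young at 10-12 weeks, and the tumours were B16-OVA, a mouse melanoma line that carries the ovalbumin antigen, taken on day 15. Endogenous tumour-infiltrating CD8+ T cells were sorted as aged Tadys (Slamf6-Tim-3-, 2 libraries), aged Tterm (Slamf6-Tim-3+, 3), young Tterm (5), aged Tprog (Slamf6+Tim-3-, 3) and young Tprog (4). OT-1 cells, whose transgenic T cell receptor recognises a peptide of ovalbumin, were sorted from tumours as aged Tterm (6), young Tterm (7), aged Tprog (2) and young Tprog (2), and naive CD8+ T cells came from the spleen of aged (2) and young (2) mice. The subsets were defined by the surface proteins Slamf6 and Tim-3, so peaks at Slamf6 follow the gate, and no young Tadys library was analysed here. Each library was a pool of 5000 to 50000 cells. The sources used here describe 2 or 3 independent biological replicates while a group holds up to 7 libraries, so the p-values here reflect library-to-library spread that may be partly technical, and these sources do not say whether the age given for OT-1 cells is that of the donor or of the tumour-bearing host. OT-1 and naive libraries share 1 table and endogenous libraries another, each scaled on its own, and levels are compared only within a table.

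Naive CD8+ T cells are kept quiescent and circulating through lymph nodes by a transcription programme that includes TCF-1 (the product of Tcf7), Foxp1 and Satb1, and by receptors such as CCR7. In chronic infection and in tumours, exhausted CD8+ T cells are sustained by a progenitor pool that retains TCF-1 and can renew itself, while terminally exhausted cells lose TCF-1, express Tim-3 and other inhibitory receptors, and renew poorly. An ATAC-seq peak away from a gene's start often marks an enhancer, so a set of peaks open in naive and progenitor cells and closed in terminal cells gives candidate elements of the programme that those 2 states have in common.

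Promoter sequence inside the peaks is shown first for 4 members that the results return to, because the reference gave a promoter window wholly inside each of them and each window holds a motif searched, a choice made with the matches known: the start of Trat1, an adaptor of the T cell receptor complex, of Nsg2, a protein of vesicle trafficking known from neurons, of Id3, an inhibitor of E protein transcription factors, and of Oaf, the mouse counterpart of the fly gene out at first. Each line is the 250 bases before the annotated start, 5′ to 3′ on the gene's own strand, from RefSeq's table of the build GRCm38.p6 (mm10), and capitals mark matches to short transcription factor motifs as spelled below or as their reverse complement; no 2 matches overlap.
Trat1, chr16:48772063-48772312, minus strand: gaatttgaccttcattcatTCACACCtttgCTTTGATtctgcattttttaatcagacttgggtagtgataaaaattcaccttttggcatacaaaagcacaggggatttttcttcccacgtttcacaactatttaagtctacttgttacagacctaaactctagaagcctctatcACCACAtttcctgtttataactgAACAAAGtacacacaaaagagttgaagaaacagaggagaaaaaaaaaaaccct
Nsg2, chr11:32000169-32000418, plus strand: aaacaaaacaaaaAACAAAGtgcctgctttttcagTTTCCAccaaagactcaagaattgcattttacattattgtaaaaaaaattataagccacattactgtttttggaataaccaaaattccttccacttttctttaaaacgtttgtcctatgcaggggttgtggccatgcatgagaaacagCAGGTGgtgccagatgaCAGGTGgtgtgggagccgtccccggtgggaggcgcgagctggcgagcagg
Id3, chr4:136143572-136143821, plus strand: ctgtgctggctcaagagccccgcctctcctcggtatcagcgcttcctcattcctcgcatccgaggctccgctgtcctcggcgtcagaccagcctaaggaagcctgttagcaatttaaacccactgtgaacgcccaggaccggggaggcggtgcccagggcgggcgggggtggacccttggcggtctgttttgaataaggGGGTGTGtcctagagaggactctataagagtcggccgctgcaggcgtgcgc
Oaf, chr9:43239817-43240066, minus strand: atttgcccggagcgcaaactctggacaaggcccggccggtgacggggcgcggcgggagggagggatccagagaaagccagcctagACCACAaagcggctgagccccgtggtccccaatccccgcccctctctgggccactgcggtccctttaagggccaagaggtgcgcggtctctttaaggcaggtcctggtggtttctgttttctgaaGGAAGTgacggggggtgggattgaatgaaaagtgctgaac
The Trat1 window holds the TCF/LEF letters CTTTGAT and CTTTGTT, the RUNX letters TGTGGT and the T-box letters GGTGTGA. Among all 32851 promoter windows of the same length, CTTTGAT occurs in 3.21%, CTTTGTT in 5.03%, TGTGGT in 14.0% and GGTGTGA in 3.33%. The Nsg2 window holds CTTTGTT, the NFAT letters TGGAAA (18.6% of all windows) and the E-box CACCTG (17.2%). The Id3 window holds the KLF letters GGGTGTG (6.93%) and none of the 3 TCF/LEF spellings searched, and the Oaf window holds TGTGGT and the ETS letters GGAAGT (19.7%). A window of 250 bases lay wholly inside a member in 15 cases. The Aff3 and Pou2af1 windows and both Chst15 windows among them held none of the motifs searched, and 4 of the 15 held CTTTGAT or CTTTGTT or the third spelling CTTTGAA, against 12.0% of all windows. A match is a run of letters and was not tested as a binding site.

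In the young libraries that chose them, the members had a median Tterm level of 26.9 normalized reads (range 4.54 to 152), a median Tprog level of 121 (50.3 to 732) and a median naive level of 142 (50.3 to 886). The ratio of naive to Tprog had a median of 1.09, that of naive to Tterm 5.00 and that of Tprog to Tterm 4.28, and the largest was 24.3. The limits cut through a continuum: a peak at Nmnat2 with a lower ratio of 3.00 to Tterm was inside and 1 at Pax5 with 2.9995 was outside, and 64 members lay within 10% above that ratio while 80 other peaks lay within 10% below it. A ratio of 2 in place of 3 would give 681 peaks and a ratio of 4 would give 128.

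The members were mostly distal. Of the 262, 151 (57.6%) lay inside a gene body, 98 (37.4%) between genes and 13 (4.96%) within 1000 bases of a gene's start or end in RefSeq's annotation, against 46.9%, 38.9% and 14.0% of the 124807 peaks tested, and 11 covered an annotated start site. They were wide peaks, with a median width of 1120.5 bases against 665 for all tested peaks. The nearest protein-coding gene within 100 kb gave a name to 231 members and 197 genes, of which 174 had 1 member and 6 had 3 or more. Aff3, a nuclear protein, Ccr7, the chemokine receptor that guides T cells into lymph nodes, Chst15, a sulfotransferase of chondroitin sulfate, Dapl1 and Nsg2 had 4 members each, and Tcf7 had 3. The 4 Ccr7 members spread over 41.1 kb, the 4 Aff3 members over 109 kb and the 3 Tcf7 members over 43.1 kb, and 58 members in all lay within 50 kb of another member.

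Depth and markers were as follows. Libraries held 4.64 to 87.6 megareads in peaks in the endogenous table and 6.80 to 27.7 megareads in the OT-1 and naive table. After the deposited scaling, 1 aged OT-1 Tprog library (library 1) stood apart with a normalized total of 7.92 megareads, against up to 15.0 megareads elsewhere in that table. Summed over peaks at the ends of 6 of 7 genes that mark terminal exhaustion, aged OT-1 Tterm libraries held 3497 to 5034 normalized reads, aged OT-1 Tprog 1145 to 1850 and aged naive 1846 to 1849, so Tterm stood apart, and aged naive cells were at the upper end of the Tprog range. All 7 naive markers summed to 2484 to 3345 in aged OT-1 Tterm, 2637 to 4918 in aged OT-1 Tprog and 5275 to 5521 in aged naive cells, where Tterm and Tprog overlapped. Markers of B cells, for which 9 of 12 genes had such a peak, summed to between 320 and 513 in the libraries of that table, none of the 262 members was assigned to a B cell marker, and no marker of the 8 lists was at 0 in all libraries.

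**Figure D1:**
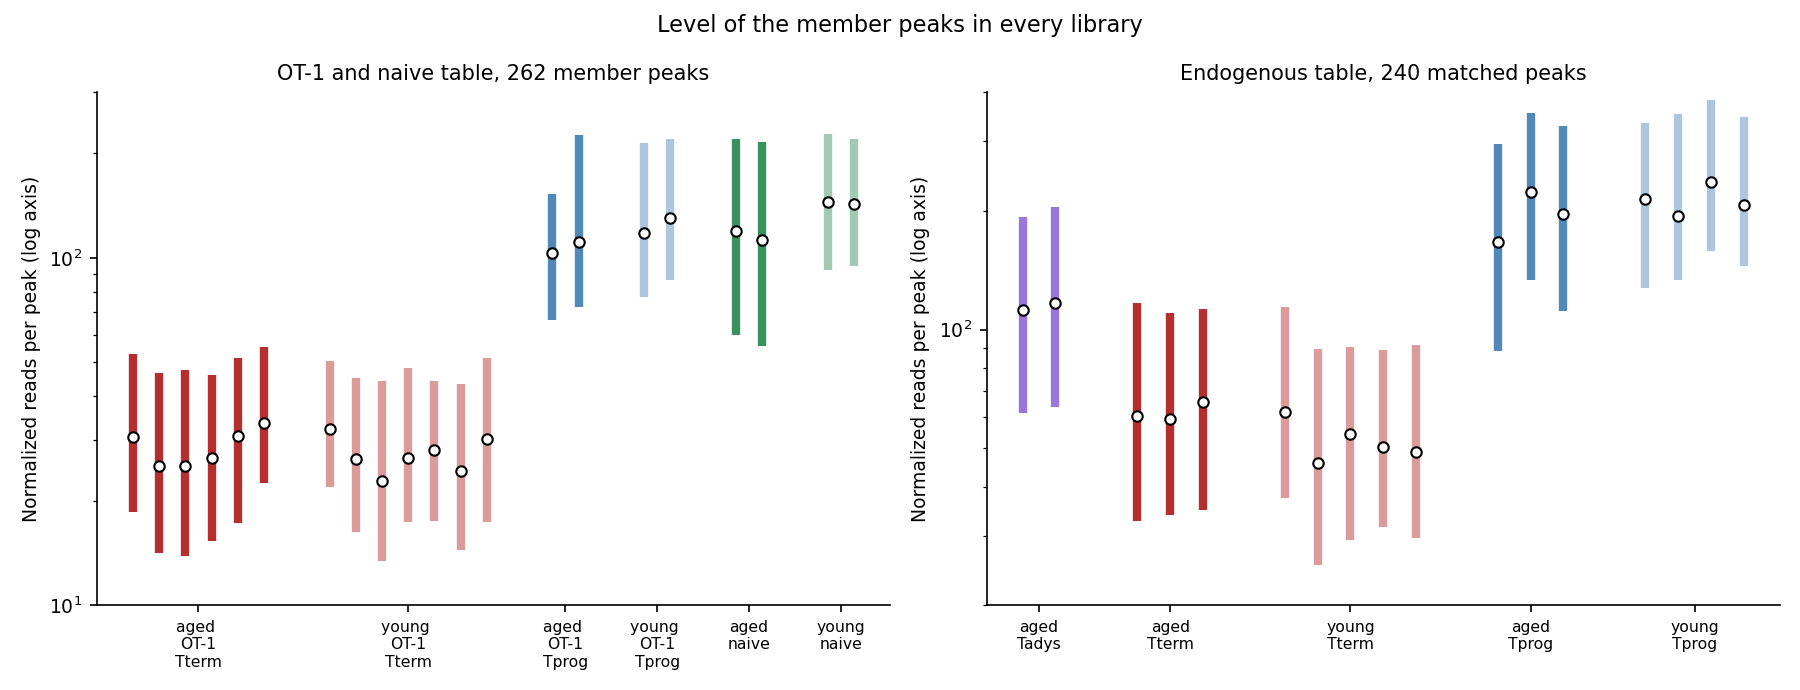
Normalized reads per peak in every library (log axis), for the 262 members in the OT-1 and naive table and for the 240 matched peaks in the endogenous table. Circles are library medians and bars the middle 50% of the peaks. Every Tterm library has a lower median than every Tprog or naive library of its table, and the 2 Tadys libraries lie between them.

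The aged OT-1 cells, which played no part in the choice, showed the same pattern in the members. The median member had 28.6 ± 3.46 normalized reads in aged OT-1 Tterm libraries (mean ± SD of library medians, n = 6), 107 ± 5.46 in aged OT-1 Tprog (n = 2) and 116 ± 4.85 in aged naive cells (n = 2). Aged OT-1 Tterm was lower than aged OT-1 Tprog at all 262 members, with a median log2 difference of −1.70 and a range of −4.31 to −0.24, where the median over all tested peaks was −0.07. By limma with Benjamini-Hochberg adjustment over all 124807 tested peaks (adjusted p under 0.05, as throughout), 192 of the 262 were lower in aged OT-1 Tterm, where 1.90% of all tested peaks were, and 0 were higher (6.58%). At 237 members every aged Tterm library was below both aged Tprog libraries, where 6.55% of all tested peaks were so ordered, and at 0 members every Tterm library was above both (7.93%). Both aged OT-1 Tprog libraries were in sequencing batch 6 and 1 of 6 aged OT-1 Tterm libraries was. Within batch 6 all 262 members were below 0 with a median of −1.60, a difference that rests on that 1 Tterm library. A fit on the 2 groups alone, with a term for batch 6, takes its difference from the same Tterm library and is not a separate check. It gave the same median and called 5 members lower, and its share of all tested peaks is not given here.

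Aged OT-1 Tterm was below aged naive at 249 of 262 members, with a median log2 difference of −2.00, and 216 were called lower (17% of all tested peaks were) and 3 higher (15.0%), or 1 higher without aged naive library 1. Every Tterm library was below both naive libraries at 226 members (24.7% of all tested peaks had that order) and above both at 2 (19.9%). This comparison shares the Tterm libraries with the one above. All naive libraries were in sequencing batch 3, and OT-1 libraries were in batches 4 and 5 or in batch 6, so cell source and batch cannot be told apart wherever OT-1 cells are set against naive cells. Between aged OT-1 Tprog and aged naive cells, which share their libraries with those 2 comparisons, the members centred near 0: the median log2 difference was −0.25 against −0.07 for all tested peaks, 15 were called higher (6.87% of all tested peaks were) and 1 lower (11.3%). Both Tprog libraries were above both naive libraries at 68 members (26.0%), where 25.2% of all tested peaks had that order. They were below both at 71 members (27.1%), against 27.9% of all tested peaks. Each share was close to that over all tested peaks, so these orders do not set the members apart. The sign of that median depends on the scaling, since it was 0.17 when libraries were scaled to equal totals, where all tested peaks moved to 0.33, and 0.16 after quantile normalization. The counts also turn on single libraries: without aged OT-1 Tprog library 2, 33 members were called lower, without library 1, 8 were, and without aged naive library 1, 9 were called higher.

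The whole rule, applied anew to the aged libraries, held for 134 of the 262 members (51.1%) and for 0.588% of all tested peaks. The criterion that members lost most often was naive at least 3 times Tterm, met by 162, then Tprog at least 3 times Tterm, met by 185. Aged Tprog reached 50 normalized reads at 249 members and aged naive at 206.

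The same young libraries define 2 classes that resemble the members, set beside them here without a test of the difference. The 867 Tprog-only peaks had a young OT-1 Tprog mean of 50 or more, at least 3 times that of young naive and of young OT-1 Tterm cells. The 2551 naive-restricted peaks had a young naive mean of 50 or more, at least 3 times that of young OT-1 Tprog and Tterm. Both classes are relative: young naive means reached 264 in the first and young OT-1 Tprog means 152720 in the second. Of the 867, 392 (45.2%) were lower in aged OT-1 Tterm than in aged OT-1 Tprog, and of the 2551, 431 (16.9%) were. In aged OT-1 Tprog the 3 classes had library medians of 107 ± 5.46 for the members, 57.5 ± 8.88 for the Tprog-only peaks and 41.1 ± 14.3 for the naive-restricted peaks, whose 2 libraries were at 31.0 and 51.2.

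**Figure D2:**
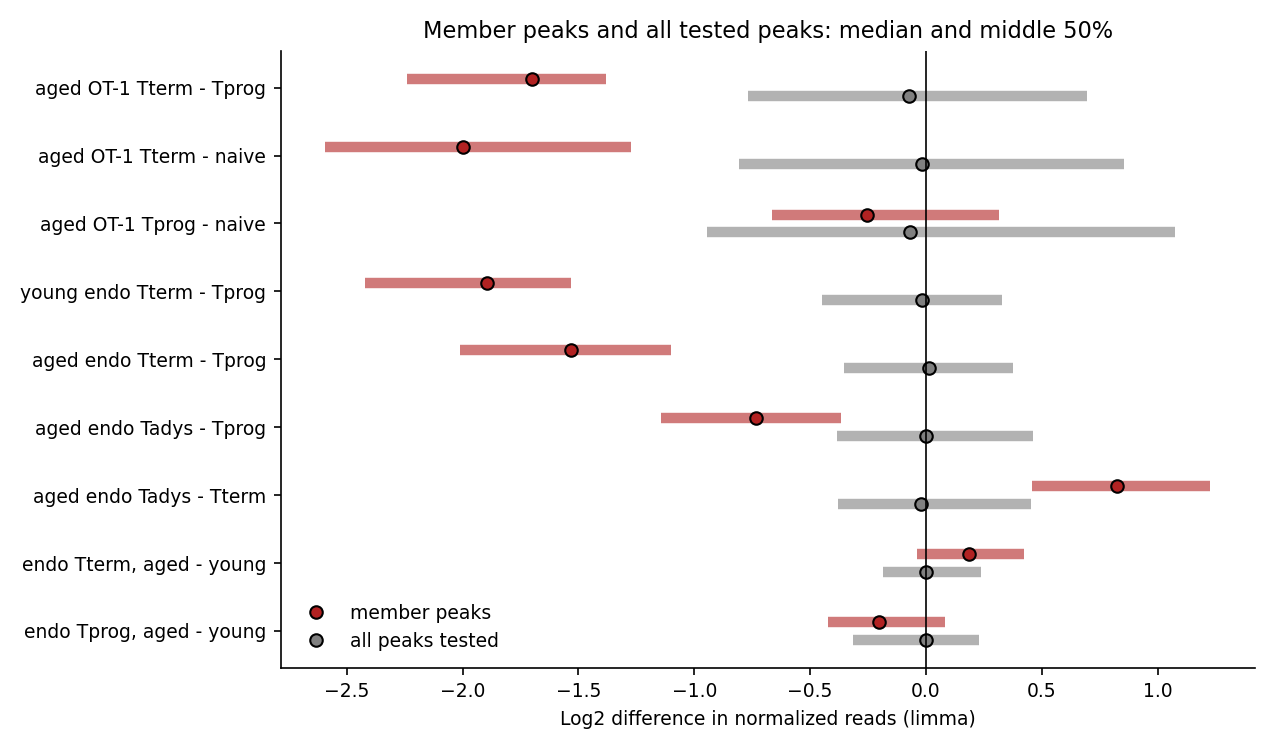
Median (circle) and middle 50% (bar) of the log2 difference in normalized reads, first group minus second, for member peaks (red) and all peaks tested (grey) in 9 comparisons. The member medians are −1.70 and −2.00 for aged OT-1 Tterm, −1.89 and −1.53 for endogenous Tterm, −0.74 and 0.82 for Tadys and between −0.25 and 0.19 for aged OT-1 Tprog against naive and for both age comparisons.

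Transcription factors of the naive and memory state gave 7 members at 4 of the 22 genes listed: Tcf7 (3), Foxp1 (2), Satb1 (1) and Id3 (1). Over all 715 tested peaks assigned to the 22 genes, 47 were lower and 41 higher in aged OT-1 Tterm than in aged OT-1 Tprog, with a median log2 difference of −0.26. Members made up 0.979% of these 715 peaks, against 0.210% of all tested peaks. Lef1, Bach2, Il7r and S1pr1, which belong to the same programme, had no member.

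The highest of the 3 Tcf7 members, chr11:52273560-52276172, lies inside the gene that encodes TCF-1. It had 93.6 to 132 normalized reads in the 6 aged OT-1 Tterm libraries (median 122), 422 and 816 in aged OT-1 Tprog, and 768 and 745 in aged naive cells. No Tterm library came near a Tprog or naive library, and the 2 Tprog libraries spanned the naive ones. The log2 difference was −2.20 ± 0.30 (SE) to Tprog (limma adjusted p = 1.77e-05) and −2.73 ± 0.25 to naive cells (adjusted p = 4.32e-09). A second Tcf7 member, chr11:52268061-52268974, had 39.8 to 62.0 in aged OT-1 Tterm (median 56.6), 207 and 339 in aged OT-1 Tprog and 307 and 332 in aged naive cells. It differed by −2.21 ± 0.29 from Tprog (adjusted p = 1.05e-05). The third, chr11:52310693-52311184, was weaker, with a log2 difference of −1.43 that did not pass (adjusted p = 0.0601).

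Foxp1, a forkhead factor that keeps naive T cells quiescent, had 2 members, the higher of them inside the gene at chr6:99485096-99486766. Its levels were 31.8 to 57.1 in aged OT-1 Tterm (median 49.2), 269 and 312 in aged OT-1 Tprog and 392 and 355 in aged naive cells, 3 groups that do not overlap. The difference from Tprog was −2.54 ± 0.32 (limma adjusted p = 7.88e-06). A member 45.7 kb from Satb1, which organises chromatin in developing and naive T cells, lay at chr17:51878992-51880899 and had 35.5 to 50.3 in aged OT-1 Tterm (median 45.5), 307 and 368 in aged OT-1 Tprog and 400 and 409 in aged naive cells. Again no groups overlapped, and the log2 difference of Tterm from Tprog was −2.81 ± 0.33 (adjusted p = 2.36e-06). The Id3 member, chr4:136143448-136145187, covers the promoter printed above and had 87.9 to 138 in aged OT-1 Tterm (median 118), 300.2 and 420 in aged OT-1 Tprog and 399 and 388 in aged naive cells. Its difference from Tprog was −1.54 ± 0.26 (adjusted p = 0.000301), smaller than at the Foxp1 and Satb1 members and at both higher Tcf7 members.

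The list of 18 genes for homing, egress and adhesion gave 8 members, 4 at Ccr7 and 4 at Dapl1, which is 3.10% of the 258 tested peaks of those genes. Dapl1 stood on that list but is not an established homing gene, so Ccr7 was the only homing gene with members. The steepest, chr11:99170657-99171760, lies 15.6 kb from Ccr7. It had 24.7 to 44.2 in aged OT-1 Tterm (median 38.1), 252.5 and 350 in aged OT-1 Tprog and 254.5 and 292 in aged naive cells. The Tterm libraries were far below the others, which overlapped, and the difference from Tprog was −2.84 ± 0.36 (limma adjusted p = 8.10e-06). Across the 4 Ccr7 members that difference ran from −2.84 to −1.12 and 3 were called. The 4 Dapl1 members ran from −2.07 to −1.26 and 2 were called.

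Of 20 genes for cytokine receptors, costimulation and survival, Bcl2, Il6ra and Slamf6 gave 5 members, 1.68% of the list's 297 tested peaks, of which 26 were higher and 19 lower in aged OT-1 Tterm than in aged OT-1 Tprog. A member inside Il6ra, the interleukin-6 receptor chain, had 15.6 to 37.7 in aged OT-1 Tterm (median 24.0), 133 and 103 in aged OT-1 Tprog and 150 and 187 in aged naive cells. No Tterm library reached the others, and the difference from Tprog was −2.21 ± 0.42 (limma adjusted p = 0.000913). A member inside Lck, the kinase that starts T cell receptor signalling, had 22.4 to 46.1 in aged OT-1 Tterm (median 32.3), 108 and 111 in aged OT-1 Tprog and 135 and 146 in aged naive cells, and was the only member among 20 genes of proximal receptor signalling (−1.64 ± 0.37, adjusted p = 0.00411). It is 0.244% of the 409 tested peaks of those genes, close to the share over all peaks, and of the 409 peaks 66 were higher and 10 lower in aged OT-1 Tterm. A member deep inside Bcl2, a survival gene, had 12.0 to 39.8 in aged OT-1 Tterm (median 27.2), 105 and 61.2 in aged OT-1 Tprog and 176 and 123 in aged naive cells. Its difference from Tprog was −1.51 ± 0.47 (adjusted p = 0.0408). Slamf6, the gate's own gene, had 2 members, from which nothing is read for that reason.

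The Trat1 member, whose promoter is printed above, was among the most fully closed in aged OT-1 Tterm. It was less closed in young OT-1 Tterm, with 11.7 to 32.7 normalized reads (median 25.5). In young endogenous cells its fall of −1.77 was smaller than the member median of −1.89. Among the aged libraries this member had 1.40 to 13.3 in OT-1 Tterm (median 6.40), 80.3 and 109 in OT-1 Tprog and 139 and 94.1 in naive cells. Naive and Tprog libraries overlapped and Tterm was near 0, with a difference of −3.92 ± 0.56 to Tprog (limma adjusted p = 3.47e-05) and −4.06 ± 0.47 to naive cells (adjusted p = 1.93e-07). The largest fall of all was inside Dclk1 (−4.31 ± 0.73, adjusted p = 0.000266), followed by a peak 146 kb from the nearest protein-coding gene, chr15:25216120-25217203 (−4.24 ± 0.94, adjusted p = 0.00412), by Pmp22, a myelin protein gene (−4.17 ± 0.76, adjusted p = 0.000621), and Ift80, a gene of cilium transport (−4.12 ± 0.87, adjusted p = 0.00249). These 4 are at low levels in Tterm, and 1 aged Tterm library listed Ift80 and 3 listed the chromosome 15 peak at 0, so the fitted differences depend on the pseudocount of 1. The smallest differences were at a member assigned to Rnf43 (−0.24) and at 1 on chromosome 16 with no protein-coding gene within 100 kb (−0.31), and neither passed the test.

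Genes of the terminal state gave 1 member for each of 2 lists, counts too small to set apart from the 0.210% of all tested peaks that are members. Of 20 genes of exhaustion and inhibitory receptors, Eomes had 1 member, 84.8 kb away at chr9:118392718-118393368, and of 20 effector genes, Xcl1, a chemokine for cross-presenting dendritic cells, had 1, 48.8 kb away, which is 0.261% and 0.444% of the tested peaks of these 2 lists. The Eomes member had 12.1 to 23.3 in aged OT-1 Tterm (median 17.5), 51.2 and 82.7 in aged OT-1 Tprog and 45.4 and 48.4 in aged naive cells, with a difference from Tprog of −1.78 ± 0.49 (limma adjusted p = 0.0193). The counts over all peaks of these genes ran the other way: 93 of 383 tested peaks of the exhaustion list and 86 of 225 of the effector list were higher in aged OT-1 Tterm, against 8 and 3 lower. The 12 AP-1 genes had 0 members among 115 tested peaks, too few peaks to read from at a share of 0.210%.

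Outside these lists, St8sia1, the GD3 ganglioside synthase, and Chst15 had members of high accessibility. The St8sia1 member had 124 to 204 in aged OT-1 Tterm (median 181), 472.5 and 624 in aged OT-1 Tprog and 493 and 465 in aged naive cells, a fall in Tterm (−1.55 ± 0.29, limma adjusted p = 0.000642) to a level above the Tprog mean of many other members. The Chst15 member at its start, chr7:132315473-132317619, had 76.7 to 114 in aged OT-1 Tterm (median 95.8), 415.5 and 519.5 in aged OT-1 Tprog and 599 and 614 in aged naive cells (−2.21 ± 0.24, adjusted p = 1.49e-06).

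**Figure D3:**
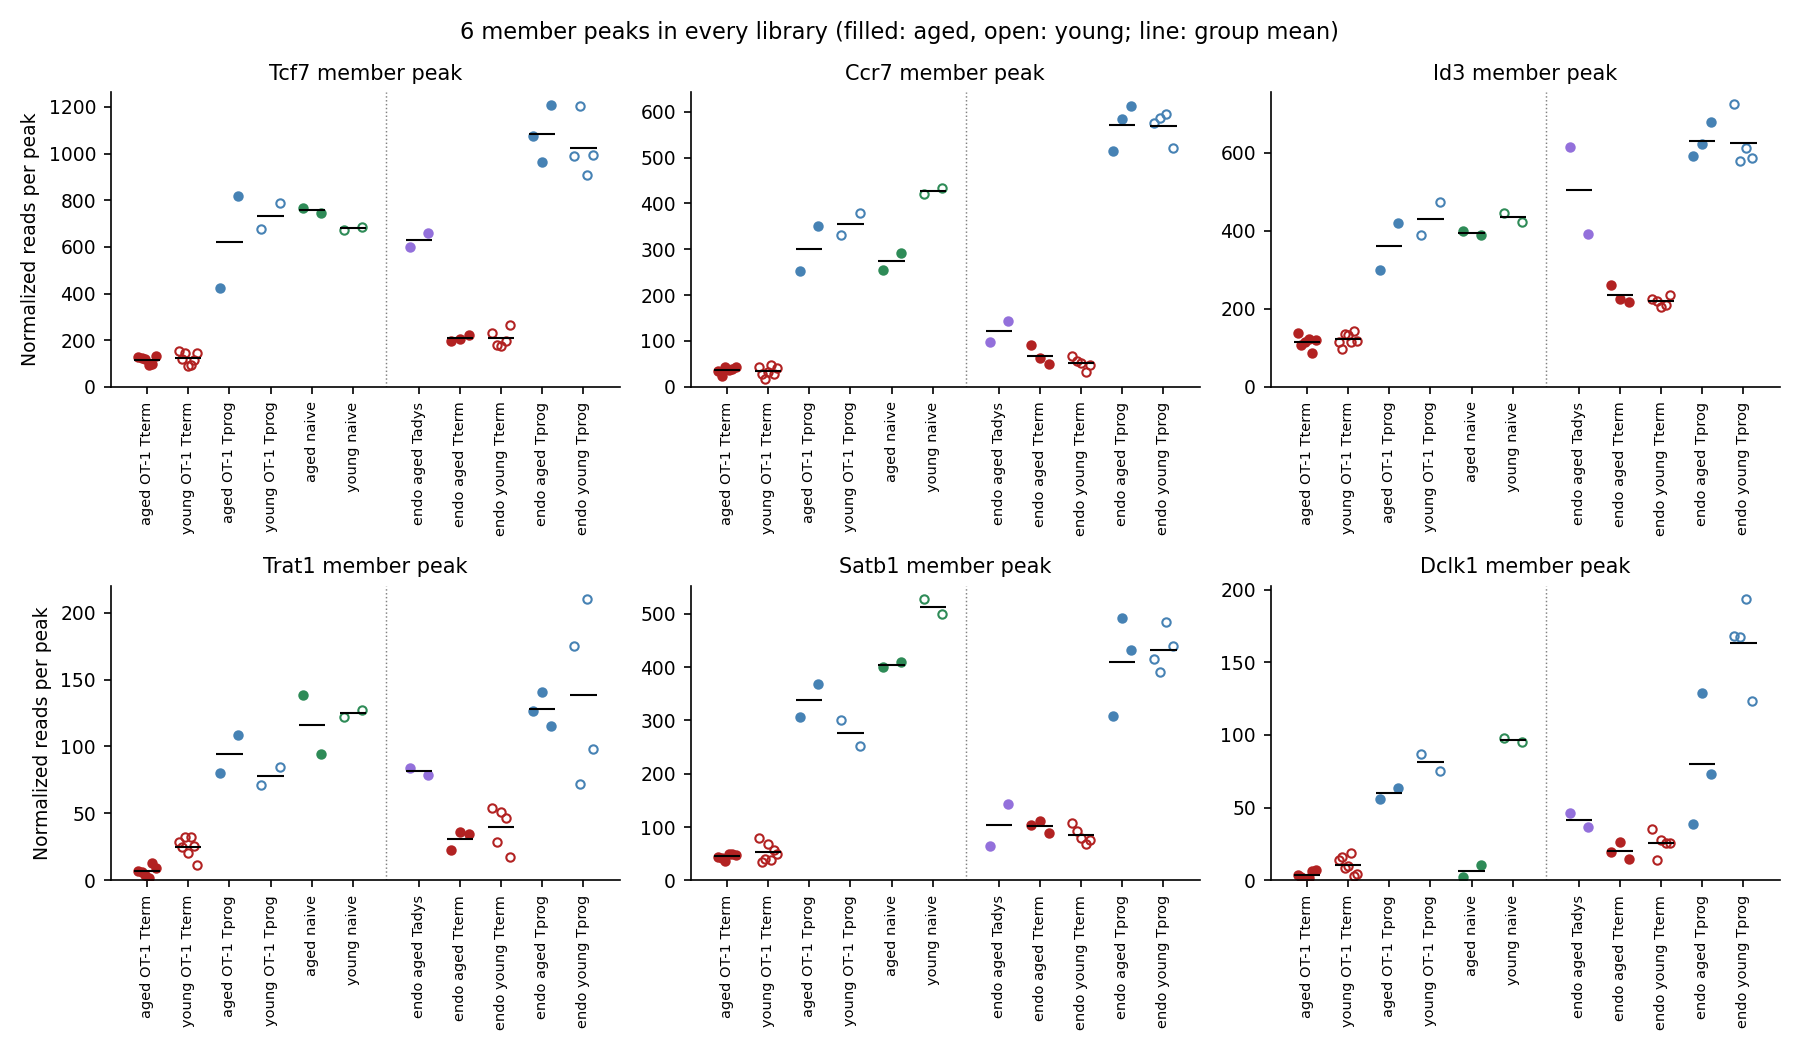
Normalized reads in every library (points) with group means (lines) for 6 members, filled for aged and open for young cells; the dotted line separates the 2 tables, which are scaled separately. Tterm libraries are low in all 6 panels, Tadys is close to Tterm at Satb1 and nearer to Tprog at Id3, and aged naive cells are low at Dclk1 alone.

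The endogenous tumour-infiltrating cells carry mixed receptors and were measured in a separate table with its own peak calls. Of the 262 members, 251 overlapped an endogenous peak and 242 were covered by 50% or more, giving 240 distinct endogenous peaks. Among the naive-restricted peaks 670 of 2551 had such a match. The median matched peak had 61.7 ± 3.28 normalized reads in aged Tterm (mean ± SD of library medians, n = 3), 52.3 ± 6.14 in young Tterm (n = 5), 196 ± 28.2 in aged Tprog (n = 3) and 213 ± 17.6 in young Tprog (n = 4).

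Endogenous Tterm was lower than Tprog at nearly every matched member, in young and in aged mice. In young mice all 240 were below 0 with a median log2 difference of −1.89, and 233 were called lower, where 11.0% of all 73578 tested endogenous peaks were. In aged mice 238 of 240 were below 0 with a median of −1.53, and 202 were called lower (5.21% of all tested peaks were). All 202 were among the 233, a share of 86.7% of the larger list. Of the 240, 178 were called lower in aged OT-1 cells, and 154 were called lower there and in endogenous cells of both ages. The groups did not overlap at 228 members in young mice, where 10.2% of tested peaks had that order, and at 220 in aged mice (13.9%). Of the Tprog-only peaks 777 of 822 (94.5%) were lower in young endogenous Tterm, and of the naive-restricted peaks 246 of 670 (36.7%).

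At the highest Tcf7 member, aged endogenous Tterm had 195, 206 and 223 normalized reads and young Tterm 232.5, 181, 175, 199 and 263, against 1076, 964 and 1208 in aged Tprog and 988, 1202, 907 and 992 in young Tprog. Every Tterm library was far below every Tprog library, and the ages overlapped in both subsets. The log2 differences between Tterm and Tprog were −2.37 ± 0.17 in aged mice (limma adjusted p = 1.28e-09) and −2.29 ± 0.14 in young mice (adjusted p = 5.32e-12).

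At the steepest Ccr7 member the aged Tterm libraries had 91.3, 62.8 and 48.9 and the young 67.5, 56.0, 52.2, 31.8 and 48.4, against 515, 584 and 613 in aged Tprog and 574, 587, 595 and 521 in young Tprog. The gap was again wide, with differences of −3.10 ± 0.26 in aged mice (limma adjusted p = 1.50e-08) and −3.49 ± 0.21 in young mice (adjusted p = 5.32e-12). The largest endogenous falls in young mice were at Ift80 (−4.08 ± 0.33) and Pmp22 (−3.54 ± 0.36), both also among the largest in aged OT-1 cells. The fall was not equally deep at every member: at Ikzf3 it was −2.05 ± 0.39 in aged mice and −3.46 ± 0.32 in young mice, a difference that did not pass (limma interaction adjusted p = 0.599). All 4 matched Aff3 members, all 4 at Ccr7 and all 4 at Dapl1 were called lower in both ages.

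The 7 matched members not called in young endogenous cells included 3 without a gene within 100 kb, at chr1:190300106-190304129, chr16:86820768-86821226 and chr4:10136903-10138072, and members at Fhit, St3gal1, Gm39773 and Tnfrsf14. The first of these varied more within groups than between them: it had 56.0, 220.2 and 93.6 normalized reads in the 3 aged Tterm libraries and 246, 20.2 and 40.7 in the 3 aged Tprog libraries. The groups overlapped over nearly their whole range.

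Tadys cells, which lack both Slamf6 and Tim-3, lay between the other subsets. Their median matched member had 115 ± 3.37 normalized reads (n = 2), against 61.7 ± 3.28 in aged Tterm and 196 ± 28.2 in aged Tprog, and 207 of the 240 had a Tadys mean between the means of those 2 groups. Tadys was lower than aged Tprog with a median log2 difference of −0.74, and 74 of 240 were called lower (3.91% of all tested peaks were) and 1 higher (2.54%). Tadys was higher than aged Tterm with a median of 0.82, and 64 of 240 were called higher (2.00% of all tested peaks were) and 0 lower (4.08%). These 2 comparisons share the Tadys libraries, and 15 members were called in both, 20.3% of the 74 and 23.4% of the 64. In pools of cells, an intermediate level in every cell and a mixture of cells with high and low levels cannot be told apart, nor can fewer cells with an open element and less accessibility per cell in any comparison here.

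The counts rest on few libraries. Without Tadys library 1 the count below Tprog was 17 and the count above Tterm 41, without aged Tprog library 2 the count below Tprog was 31, and without aged Tterm library 3 the count above Tterm was 36, while the medians stayed between −0.83 and −0.65 below Tprog. Markers of terminal exhaustion and of progenitors placed Tadys between the others: 6 of 7 markers of terminal exhaustion summed to 4314 to 4470 normalized reads in Tadys, 5886 to 5996 in aged Tterm and 3490 to 3629 in aged Tprog, and all 7 progenitor markers to 2767 to 3178, 1952 to 2339 and 3956 to 4208 in the same order. The first list names the gene of Tim-3 and the second Slamf6, which are gates of the sort, and the second also names Tcf7, which has members. Other lists differed: NK cell markers summed to 1850 to 1890 in Tadys, below 2373 to 3058 in aged Tterm and 2589 to 2763 in aged Tprog. Markers of CD4 and regulatory T cells were also lowest in Tadys (3005 to 3493, against 3544 to 3931 and 3574 to 4014). The part of these markers in the result was not tested.

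On a scale where 0 is the aged Tterm mean and 1 the aged Tprog mean in log2, the median Tadys position was 0.535 with a middle 50% of 0.370 to 0.705 over the 199 matched members whose 2 means differ by a log2 of 1 or more. The Tprog-only peaks had a median of 0.520 and the naive-restricted peaks 0.661, and the difference between the classes was not tested.

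Members differed in that position. At the highest Tcf7 member the 2 Tadys libraries had 601 and 661, against 195, 206 and 223 in aged Tterm and 1076, 964 and 1208 in aged Tprog, a position of 0.67 with no overlap to either side. The log2 difference of Tadys was 1.60 ± 0.19 from Tterm (limma adjusted p = 4.26e-05) and −0.77 ± 0.19 from Tprog (adjusted p = 0.0146). At Foxp1 Tadys had 363 and 240, against 118, 75.2 and 110 in aged Tterm and 430, 522 and 572 in aged Tprog (position 0.68). Tadys was above Tterm by 1.56 ± 0.26 (adjusted p = 0.00118), and the difference from Tprog did not pass (−0.77 ± 0.26, adjusted p = 0.0710). Id3 was higher still in proportion: Tadys had 615 and 392, against 261, 224 and 217 in aged Tterm and 592, 622 and 678 in aged Tprog, with 1 Tadys library inside the Tprog range. The difference from Tprog did not pass there (−0.36 ± 0.19, adjusted p = 0.257), and that from Tterm was 1.07 ± 0.19 (adjusted p = 0.00175). The Pmp22 and Trat1 members lay at 0.80 and 0.68.

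Satb1 and Ikzf3, which encodes the zinc finger factor Aiolos, were at the Tterm end. The Satb1 member had 64.1 and 143 in Tadys, against 104, 112 and 88.6 in aged Tterm and 307, 491 and 432 in aged Tprog, so that the Tadys libraries enclosed the Tterm ones. Tadys differed from Tprog by −2.06 ± 0.28 (limma adjusted p = 0.000193) and from Tterm by −0.08 ± 0.28 (adjusted p = 0.904), a position of 0.01. The Ikzf3 member had 32.1 and 36.5 in Tadys, against 37.0, 24.2 and 41.4 in aged Tterm and 108, 168 and 156 in aged Tprog (−2.02 ± 0.44 to Tprog, adjusted p = 0.00734). The steepest Ccr7 member was nearer to Tterm, with 98.2 and 144 in Tadys, against 91.3, 62.8 and 48.9 in aged Tterm and 515, 584 and 613 in aged Tprog, and differed from Tprog by −2.25 ± 0.29 (adjusted p = 9.14e-05). The Slamf6 member was below Tterm in Tadys on this scale (position −0.59), and Slamf6 is a gate of the sort.

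**Figure D4:**
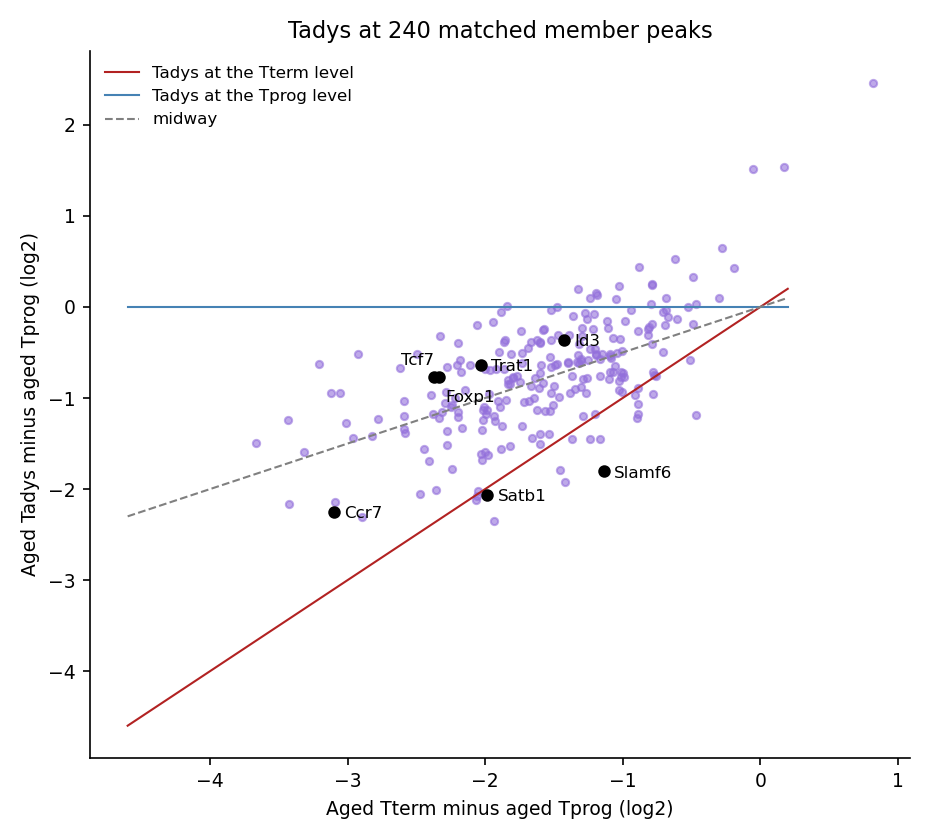
Log2 difference of aged Tadys from aged Tprog (vertical axis) against that of aged Tterm from aged Tprog (horizontal axis) for 240 matched member peaks, with lines where Tadys would equal Tterm, equal Tprog or lie midway. Satb1 lies on the Tterm line, Tcf7, Foxp1, Trat1 and Id3 lie above the midway line, and most points lie between the Tterm and Tprog lines.

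The 1 member called higher in Tadys than in aged Tprog was the variable peak at chr1:190300106-190304129, 129 kb from Prox1. It had 319 and 343 in Tadys, against 56.0, 220.2 and 93.6 in aged Tterm and 246, 20.2 and 40.7 in aged Tprog (limma adjusted p = 0.0293). The 3 aged Tprog libraries differ among themselves by more than Tadys does from the highest of them, and the call was lost without either aged Tprog library 2 or 3 or Tadys library 1.

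Age within the endogenous subsets moved the members little. In aged against young Tterm the median log2 difference was 0.19 and 171 of 240 were above 0. By limma 0 were called in either direction (0.00680% of all tested peaks were called higher and 0.00136% lower), DESeq2 called 6 higher and edgeR 0. The share of all tested peaks that DESeq2 called is not given here, so its 6 cannot be set against it. An unadjusted limma p under 0.05 was found at 39, and at 5154 of all 73578 tested peaks. In aged against young Tprog the median was −0.20, 163 of 240 were below 0, and 1 was called lower (0.0843% of all tested peaks were) and 0 higher (0.0815%). There 36 had an unadjusted limma p under 0.05, as did 9170 of all 73578 tested peaks. DESeq2 called 6 lower, again without its share over all tested peaks, and the median was −0.08 without aged Tprog library 1. The difference of the 2 age effects had a median of 0.41 and was above 0 at 201 of 240 members. By limma, edgeR and DESeq2 0 were called in either direction (by limma 0.00% of all tested peaks were). An unadjusted limma p under 0.05 was found at 38, and at 5759 of all 73578 tested peaks. The Tprog-only peaks gave a like value (median 0.44, above 0 at 701 of 822).

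The 1 call was a peak 39.5 kb from A530016L24Rik, chr12:112448841-112449932. It had 108, 123 and 145 normalized reads in aged endogenous Tprog, against 267, 289, 329 and 313 in young endogenous Tprog, with no overlap. The difference was −1.26 ± 0.25 (limma adjusted p = 0.0295), and the call was lost without aged Tprog library 1 or without any of the 4 young Tprog libraries. The same peak had 21.8 and 22.9 in aged naive cells, against 147 and 175 in young naive cells, while OT-1 Tprog had 78.0 and 144 in aged and 106 and 185 in young libraries.

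That peak belongs to a group of members that were low in aged naive cells. Since the young naive level chose the members, the aged-to-young comparison of naive cells is given as a description. The mean of aged naive libraries was under 0.5 times that of young naive libraries at 65 members (24.8%), against 5.01% of the 36604 tested peaks with a young naive mean of 50 or more and 27.5% of the naive-restricted peaks. At 10 members it was above 2 times. The median ratio of aged to young naive cells was 0.809 in the members and 1.17 in those 36604 peaks. In the same 65 members the ratio of aged to young OT-1 Tprog had a median of 0.748, against 0.862 in all members. Aged OT-1 Tprog libraries were in batch 6 and young ones in batches 4 and 5, so age and batch cannot be told apart in that ratio. Aged OT-1 Tprog had 50 or more normalized reads at 56 of the 65 and aged naive cells at 17. The low count in naive cells follows from picking the 65 by their low aged naive level. Markers differed too: 4 of 7 NK cell markers with a gene-end peak summed to 1891 to 1998 normalized reads in aged naive cells, against 1095 to 1200 in young naive cells, and 6 of 7 markers of terminal exhaustion to 1846 to 1849, against 1130 to 1180. Their part in these levels was not tested.

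Dclk1, a kinase gene, and Plcl1, a phospholipase C-like gene, lay farthest from equality. The Dclk1 member, chr3:55419306-55420037, had 0.866 to 6.94 in aged OT-1 Tterm (median 3.31), 55.9 and 63.8 in aged OT-1 Tprog and 2.52 and 10.5 in aged naive cells, against 97.7 and 95.4 in young naive cells. Aged naive cells were at the Tterm level there, and OT-1 Tprog of both ages was high, with 87.0 and 75.4 in young OT-1 Tprog. Aged OT-1 Tprog was above aged naive cells by 3.78 ± 0.89 (limma adjusted p = 0.00342). The Plcl1 member, chr1:55447891-55448603, had 74.5 and 27.6 in aged OT-1 Tprog and 4.20 and 3.92 in aged naive cells, against 102 and 103 in young naive cells, and the difference of aged Tprog from aged naive was 3.56 ± 0.68 (adjusted p = 0.000497). Plcl1 was also 1 of the 3 members higher in aged OT-1 Tterm than in aged naive cells (1.92, adjusted p = 0.00228).

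A cluster of 3 members on chromosome 13 behaved alike, at chr13:28417191-28419231, chr13:28501905-28502986 and chr13:28512044-28513719, with the nearest protein-coding gene, Prl5a1, 266 to 360 kb away. The first of them, with the largest difference of aged OT-1 Tprog from aged naive cells, had 19.4 to 58.7 in aged OT-1 Tterm (median 45.7), 140 and 305 in aged OT-1 Tprog and 24.4 and 28.1 in aged naive cells, against 309 and 325 in young naive cells. Aged naive cells were mostly below the Tterm libraries there. Aged OT-1 Tprog was above aged naive cells by 3.45 ± 0.56 (limma adjusted p = 7.48e-05), and all 3 were among the 15 members called higher in that comparison. The others of the 15 were near Alpk2, Arhgap24, Gypc, Gm31493, Irf2bp2, Magi2, Oaf, Plpp1 and A530016L24Rik and on chromosome 10. The Oaf member, whose promoter is printed above, had 53.5 and 95.6 in aged OT-1 Tprog and 22.7 and 20.9 in aged naive cells (1.82 ± 0.58, adjusted p = 0.0280), against 87.4 and 89.0 in young naive cells.

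The 1 member called lower in aged OT-1 Tprog than in aged naive cells was a Chst15 peak, chr7:132414951-132416008, with 116 and 33.6 in aged OT-1 Tprog and 172 and 165 in aged naive cells, against 86.8 and 66.6 in young naive cells. Its 2 Tprog libraries lie far apart, and the call was lost without either aged naive library.

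Endogenous Tprog cells, which were not used for this grouping, had mostly negative differences between aged and young mice at these elements, of which 1 passed the test. Of the 60 matched peaks among the 65, 53 were below 0 in aged minus young endogenous Tprog, with a median log2 difference of −0.42, and 16 had an unadjusted limma p under 0.05. Of the other 180, 110 were below 0, with a median of −0.08 and 20 at an unadjusted p under 0.05. Over all 73578 tested peaks 9170 had an unadjusted limma p under 0.05 in that comparison. At the 20 members where aged naive cells were under 0.25 times young naive cells, 19 were below 0 in endogenous Tprog, with a median of −0.58. The peak near A530016L24Rik alone passed the adjustment over all tested peaks, and the difference between the 2 groups of members was not tested.

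**Figure D5:**
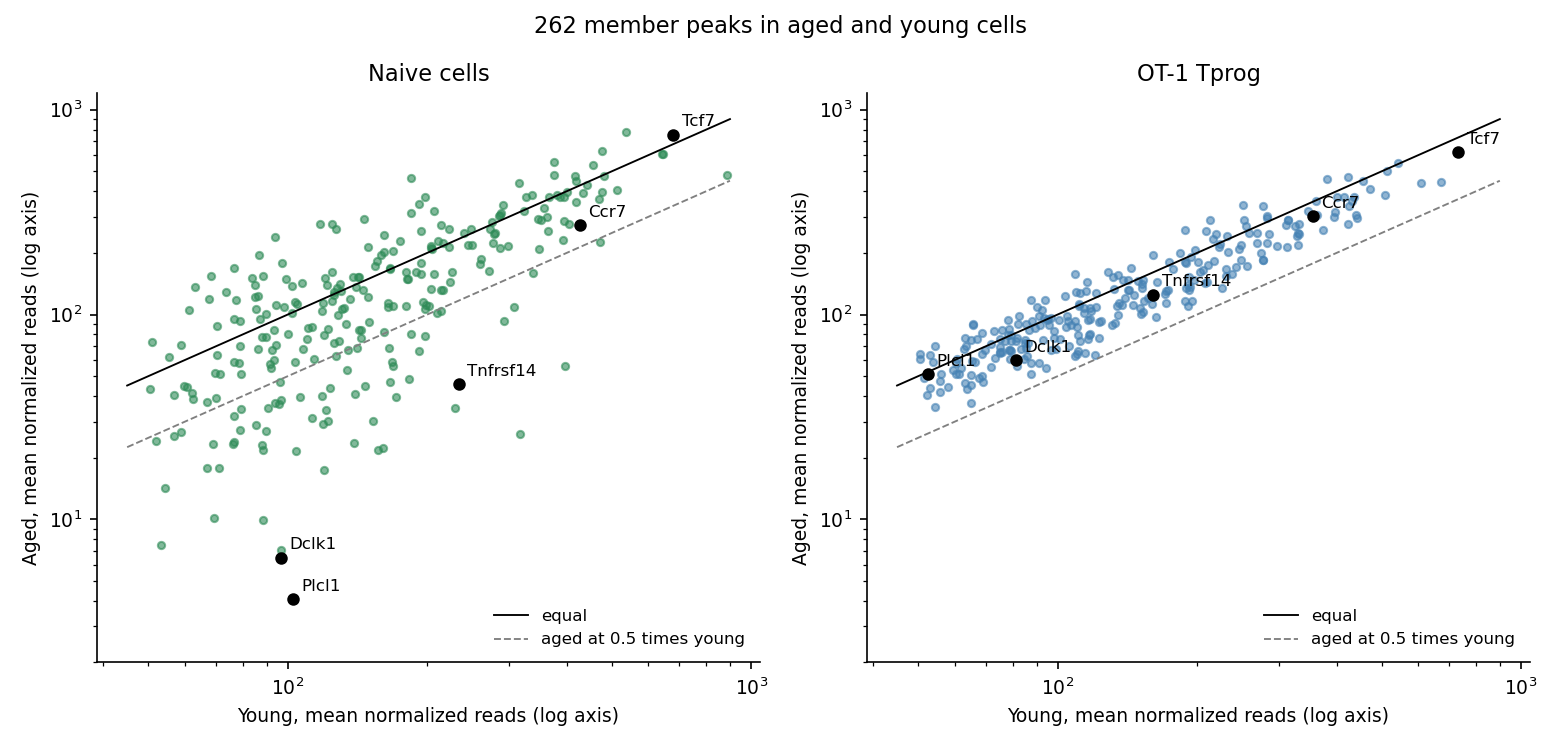
Mean normalized reads in aged (vertical) against young (horizontal) naive cells and OT-1 Tprog cells for the 262 members, both axes logarithmic, with lines at equality and at 0.5 times the young level. In naive cells 65 members lie below the dashed line, Dclk1 and Plcl1 farthest. In OT-1 Tprog cells the median ratio of aged to young is 0.862. Both aged Tprog libraries are below both young ones at 71 members and above both at 12, counts given without the share over all tested peaks. The young Tprog level chose the members, so these counts are a description only. Aged and young OT-1 Tprog libraries were in different batches, so age and batch cannot be told apart there.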

How the data were processed

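ATAC-seq reads were processed by the authors. Per the submitters' processing notes, which give no roles or order, Bowtie2 2.2.9, Picard 2.8.0, SAMtools 1.3.1, MACS2 2.1.1, DESeq2 1.28.1 and the build mm10 were used; peak merging and read shifting are not given in the sources used here. The deposited values are a signal per peak, reads divided by a size factor per library: all of them came out as whole multiples of 1 step per library (tolerance 0.02 reads), so whole reads were recovered for the count tests run as alternatives. Paired-end reads were 50 bp.

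The 262 members and all gene lists were chosen with earlier results of these data known. Differences were tested with limma 3.58.1 (R 4.3.3) on log2(normalized reads + 1) with an intensity trend, all groups of a table in 1 model, a term for batch 6 in the OT-1 and naive table (estimated in part from young Tterm libraries that the rule used), and Benjamini-Hochberg adjustment over all peaks with a mean of 5 or more (124807 of 169323, with all 262 members, and 73578 in the endogenous table). Fold changes of low peaks are understated by the pseudocount. Members were matched to endogenous peaks that cover 50% or more of them and named by the nearest protein-coding gene within 100 kb (RefSeq, GRCm38.p6, 21896 genes). Named members are those of the listed genes, the highest, the genes with most members, the largest and smallest falls, the extreme Tadys positions, age calls and the neighbours of the rule's limits; members called in small counts were named after their values were seen. edgeR 4.0.16 and DESeq2 1.42.0 on recovered reads, other filters, scalings, pseudocounts and left-out libraries were tried. Same-numbered libraries did not deviate together in every pair (correlations −0.267 to 0.171), so no pairing was assumed. In groups of 2 libraries such correlations mirror each other, so they cannot exclude a pairing. The fits were tested on simulated data with planted changes. Falls to 0.25 times were recovered in 46% of cases for aged OT-1 Tterm against Tprog and 32% for aged OT-1 Tprog against naive. The share was 96% for young endogenous Tterm against Tprog and 80% for Tadys against aged Tprog. Falls to 0.5 times were recovered in 4%, 0%, 60% and 28% in the same order, so a lack of calls does not show equal levels. False calls were 5 of 67, 0 of 36, 6 of 155 and 11 of 112. Coordinates are as the files give them.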

Additional observations from a re-analysis of the deposited data

Results flagged for a closer look

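In groups of 4 to 7 libraries, 1 library lay apart from the rest (by Dixon's test at 95%) in 6 of the 162 sets of values of named members that were examined, where chance alone flags about 1 set in 20. The peak at chr1:190300106-190304129, 129 kb from Prox1, gave 3 of the 6. Library 1 of aged OT-1 Tterm had 205.5 normalized reads there against 27.71 to 79.91 in the other 5, library 5 of young endogenous Tterm had 228.6 against 43.75 to 79.6 in the other 4, and library 2 of young endogenous Tprog had 204.1 against 76.53 to 92.63 in the other 3.

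The Pou2af1 member had 245.4 in library 6 of young OT-1 Tterm, in batch 6, against 125.2 to 153 in the other 6. The Irf2bp2 member had 116.1 in library 3 of young endogenous Tterm against 43.58 to 54.38 in the other 4. The Tnfrsf14 member had 519.9 in library 5 of young endogenous Tterm against 219.6 to 295.7 in the other 4. The cause of these values was not tested.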

How the results depend on the processing

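Every alternative kept the sign of every median difference except that between aged OT-1 Tprog and aged naive cells, and no named member that passed the test turned its sign in 2726 refits of aged OT-1 Tterm against Tprog, aged OT-1 Tprog against naive, young endogenous Tterm against Tprog and Tadys against aged Tprog, the comparisons in which single members were refitted. The cause of the shifts below was not tested beyond what each alternative changes. For aged OT-1 Tterm against aged OT-1 Tprog, 192 called lower became 5 with the compared groups alone. That fit and the one within batch 6 take the difference from 1 aged Tterm library, with a median of −1.60 in both. The median of −1.70 became −1.83 with edgeR, −2.10 with equal totals (all tested peaks −0.46), −1.82 with no batch term, −1.57 with a pseudocount of 5 and −1.87 with quantile normalization. For aged OT-1 Tterm against aged naive cells, the median of −2.00 became −1.84 with a pseudocount of 5 and −1.79 with quantile normalization. For aged OT-1 Tprog against aged naive cells, 1 called lower became 0 with the compared groups alone, equal totals, no batch term or quantile normalization, 2 with edgeR, 3 with DESeq2 or a pseudocount of 5 and 4 with a mean of 10 or more, and 15 called higher became 0 with the compared groups alone and 23 with DESeq2. Its median of −0.25 became −0.12 with the compared groups alone or no batch term, 0.17 with equal totals and 0.16 with quantile normalization.

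In endogenous cells, the young Tterm to Tprog median of −1.89 became −2.05 with equal totals. Tadys below aged Tprog, 74 called, became 24 with the compared groups alone, where the 1 call above became 0, as it did with DESeq2 and edgeR, and Tadys above aged Tterm, 64 called, became 14. With age, 0 higher in Tterm became 6 with DESeq2, and 1 lower in Tprog became 3 with the compared groups alone, 6 with DESeq2 and 2 with quantile normalization. Shares of all tested peaks called are given only for the main limma fits. The number of members, 262, became 681 with a ratio of 2, 128 with a ratio of 4 and 149 with a minimum of 100.

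With the replicate number as a block, the aged OT-1 Tterm to Tprog median was −1.83, that of Tprog to naive −0.12, and the 1 age call in Tprog became 0. Whether the numbers pair the libraries is not known. No other call count moved by over 1.5 times with that block.

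Leaving out 1 library at a time gave, for aged OT-1 Tterm against Tprog, 157 to 195 called lower and medians of −1.95 to −1.64; against naive cells 178 to 217 lower and 1 to 4 higher; for Tprog against naive 0 to 33 lower, 9 to 16 higher and medians of −0.44 to −0.036. In endogenous cells it gave 230 to 235 lower in young Tterm, 165 to 202 lower and 0 to 1 higher in aged Tterm, 17 to 77 below and 0 to 3 above Tprog in Tadys (medians −0.83 to −0.65), 36 to 53 above and 0 to 1 below Tterm, 0 to 1 age calls in Tprog (medians −0.26 to −0.078), interaction medians of 0.30 to 0.47, Tterm age medians of 0.16 to 0.25, and 252 to 319 member peaks. With 2 libraries in several groups, a lone library was assumed to vary like the other groups. Depth limits low members most: levels under about 10 normalized reads in Tterm rest on few reads.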
